A study of Mus musculus with 26 samples.

Results

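The SPRED proteins and the RAS GTPase activators that act beside them were followed in leukaemic stem and progenitor cells of mice in which Spred1 had been deleted. The 7 genes were the rows of the deposited count table with the symbols Spred1, Spred2, Spred3, Mir674, Nf1, Rasa1 and Rasa2, out of 24091 genes in all. The choice used the symbol alone, and Mir674 was included because it lies just past the end of the targeted gene. The RNA came from LSK cells of the bone marrow, sorted for c-Kit and Sca-1 and against lineage antigens, a fraction that holds stem cells and early progenitors. All 26 mice were of the C57BL/6 background and carried SCLtTA/BCR-ABL, a model of chronic myeloid leukaemia in which an enhancer of the Scl gene drives the tetracycline transactivator and this in turn drives the BCR-ABL oncogene. The global KO group (6 libraries) lacked Spred1 in all tissues, and the Spred1 wt group (5 libraries) was its control. HSC KO and HSC wt (5 libraries each) carried Mx1-cre, a recombinase under an interferon-inducible promoter that is active in many blood and non-blood cells, and both were given 7 doses of 250 µg of poly(I:C), 2 days apart. EC KO (5 libraries) carried the endothelial deletion. The Cre driver of EC KO, the means by which the global knockout was made, the exon removed, the age of the mice and any poly(I:C) outside the HSC groups are not given in the sources used here. The EC wt control was not analysed here, so EC KO was set against Spred1 wt, the same 5 libraries that served as control of global KO.

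RAS GTPases pass signals from receptors such as KIT to the RAF, MEK and ERK kinases while they hold GTP. GTPase activating proteins end the signal by speeding the hydrolysis of GTP: neurofibromin (Nf1), p120 RasGAP (Rasa1) and Rasa2 belong to this class. SPRED1 is a membrane-bound adaptor that binds neurofibromin and carries it to RAS at the plasma membrane, and inherited loss of human SPRED1 causes Legius syndrome, a milder relative of neurofibromatosis. SPRED2 shares its EVH1, KIT-binding and Sprouty-related regions, and SPRED3 has the EVH1 and Sprouty-related regions but no working KIT-binding region. In endothelial cells Spred1 mRNA is a target of miR-126, the microRNA encoded in an intron of Egfl7.

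The sequences below are those of the microRNA gene whose reads differed between the groups and of the microRNA known to target Spred1. They were taken from RefSeq (GRCm38, the build of the count table) and are written 5′ to 3′. In the hairpin of Mir674 (chr2:117185127-117185226, plus strand) capitals mark both mature arms, and in the mature microRNAs they mark the seed, bases 2 to 8.
Mir674 hairpin: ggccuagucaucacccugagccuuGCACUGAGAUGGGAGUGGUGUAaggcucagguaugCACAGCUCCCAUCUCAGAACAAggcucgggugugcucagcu
mmu-miR-674-5p: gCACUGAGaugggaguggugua
mmu-miR-674-3p: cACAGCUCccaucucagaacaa
mmu-miR-126a-3p: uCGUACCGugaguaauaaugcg
The seed of miR-674-5p is shared by miR-1947-3p and miR-3473d among 1738 mature mouse microRNAs, and the other seeds shown are each found in 1 of them.

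The annotated 3′ UTR of Spred1 makes up 72.0% of its 6016-base transcript, and the coding part 22.2%. It holds a match to miR-126a-3p at chr2:117178445-117178474 (plus strand, base 511 of 4330 of the UTR), in which capitals mark the letters opposite bases 2 to 7 of the microRNA followed by an A (GGTACGA).
Spred1 site: tttaactaaatgtaaGGTACGAactatgac
These letters stand in 0.736% of the 3′ UTRs of 20925 genes, and in none of those of Spred2, Spred3, Nf1, Rasa1 and Rasa2. A match opposite bases 2 to 8 of miR-126a-3p (CGGTACG) was present in 0 of the 6 coding members and in 0.167% of all genes. The letters TCAGTGA, opposite bases 2 to 7 of miR-674-5p with an A, occurred in 1 place in Spred1 and in 2 places in Spred2, and in 14% of all genes. Matches to miR-674-3p were found in Rasa2 alone among the members, with GAGCTGT in 1 place (12.6% of all genes) and AGCTGTA in 2 places (10.6%), of which 1 overlaps the first. These matches describe the letters only.

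Library totals ran from 14816071 to 26714325 counts. Levels are given as CPM, counts scaled to library size by the TMM method, and differences on the log2 scale come from edgeR with p-values adjusted over 13379 tested genes; a gene was called at an adjusted p under 0.05. The labels name mice, and each library was read as 1 mouse. Xist of at least 500 CPM marked 2 HSC wt, 3 HSC KO and 2 EC KO libraries as female, and none of the Spred1 wt and global KO libraries. The sorting markers were present in every library, with Kit at 344 to 1248 CPM, Ly6a (Sca-1) at 41.0 to 83.6 and Cd34 at 530 to 970. Of the lineage antigens, Cd3e and Ly6g had medians of 0.103 and 0.281 CPM, while Itgam (CD11b) stood at 39.9 to 103. The endothelial marker Cdh5 lay between 0 and 2.20 CPM, and Pecam1, which blood progenitors also express, between 124 and 192.

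Spred1 retained 28.5% of its control level in global KO (95% interval 23.2 to 35.1%), 34.1% in HSC KO (27.4 to 42.5%) and 61.5% in EC KO against Spred1 wt (49.7 to 76.2%), and it was called in all 3 comparisons (edgeR adjusted p = 2.86e-08, 4.14e-06 and 0.00527). The knockout libraries held 432 to 689 Spred1 counts in global KO, 494 to 720 in HSC KO and 1175 to 2007 in EC KO. The level lay between 22.4 and 44.5 CPM (median 33.1) in the 6 global KO libraries. In the Spred1 wt libraries it was 92.4, 106, 148, 110 and 115 CPM. Every global KO library was far under every control, with no overlap. The HSC KO libraries had 28.8, 47.4, 36.7, 32.8 and 31.3 CPM of it and the HSC wt libraries 96.8, 109, 106, 107 and 101, again without overlap. The counts cover the whole gene, so that reads from exons that remain after the deletion are included and do not show how much functional transcript was left. In sorted cells measured in bulk, fewer cells that express a gene and less RNA of it per cell cannot be told apart.

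The knockout groups fell into a low pair and a higher group. HSC KO and global KO could not be separated in Spred1, with a log2 difference of 0.12 (95% interval -0.18 to 0.42, edgeR adjusted p = 0.824; 0.0673% of genes were called), which turned to -0.01 without the second HSC KO library. Spred1 was 2.16-fold higher in EC KO than in global KO (log2 difference 1.11, SE 0.144, edgeR adjusted p = 3.05e-05, 5 of 5 libraries above all 6) and 1.99-fold higher than in HSC KO (0.99, SE 0.152, edgeR adjusted p = 0.000164). In the order of the group means, Spred1 wt and HSC wt were neighbours that did not separate (log2 difference 0.14, interval -0.17 to 0.45, edgeR adjusted p = 0.92). HSC wt lay above EC KO by 0.56 (SE 0.149, edgeR adjusted p = 0.0167). The effect in global KO minus that in HSC KO was -0.26 (interval -0.69 to 0.17, edgeR adjusted p = 0.9997), where 0.0149% of genes were called.

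**Figure D1:**
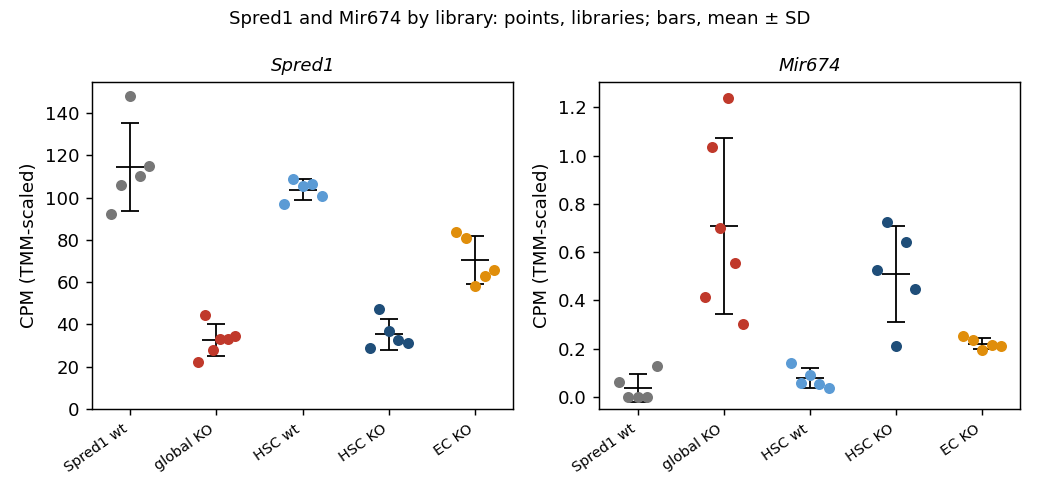
Levels of Spred1 (left) and Mir674 (right) in CPM for each library (points) of the 5 groups, with the mean ± SD (bars). Spred1 is low in global KO and HSC KO and intermediate in EC KO (58.0 to 83.9 CPM), while the highest Mir674 levels are those of global KO (up to 1.24 CPM) and the wild-type libraries lie at or near 0.

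The EC KO value moved with markers of other cells. The Spred1 level of EC KO was 83.9, 80.9, 58.0, 63.0 and 66.0 CPM in libraries 1 to 5. The mast cell and basophil score, a z-score over the 26 libraries of the mean log2 CPM of 10 markers, was 0.319 and 0.334 in libraries 1 and 2 and -1.74, -1.94 and -1.85 in libraries 3 to 5. Its markers did not all move alike. From Spred1 wt to EC KO the median of Cma1 fell from 1962 to 14.7 CPM and that of Cpa3 from 3288 to 255. The median of Tpsab1 fell from 91.4 to 0.535 CPM, while that of Mcpt8 rose from 271 to 726. All 5 Spred1 levels lay below that of the lowest Spred1 wt library, and both libraries with the higher scores held the higher Spred1 levels. With the score as a covariate, the log2 difference of EC KO from Spred1 wt was -0.34 (edgeR adjusted p = 0.0398) in place of -0.70 (SE 0.150, edgeR adjusted p = 0.00527). Over its other alternatives this adjusted p ran from 0.000195 with DESeq2 to 0.0262 with only the compared groups in the fit. In global KO the same covariate gave -1.65 in place of -1.81, and in HSC KO -1.48 in place of -1.55.

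Within groups, Spred1 had a log2 slope of 0.22 per SD of the mast cell score (SE 0.0365, edgeR adjusted p = 7.42e-05), and 28.1% of tested genes passed the same test. The slope was -0.22 per SD of the macrophage score (SE 0.0347, edgeR adjusted p = 0.000339), where 11.5% of tested genes passed. None of the other 6 members passed either slope. The nearest was Rasa2, at 0.16 per SD of the mast cell score (edgeR adjusted p = 0.0667). All 10 mast cell markers were in the table and none was at 0 throughout a group. Their summed level ranged from 2622 to 16251 CPM in Spred1 wt, 1508 to 13341 in global KO, 3494 to 6649 in HSC wt, 1638 to 11932.5 in HSC KO and 1964 to 5030 in EC KO. The 9 macrophage markers summed to 54.1 to 202 CPM in Spred1 wt, 41.1 to 424 in global KO, 29.2 to 53.4 in HSC wt, 26.6 to 106 in HSC KO and 40.2 to 227 in EC KO. Their part in the Spred1 level was not tested beyond these fits.

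**Figure D2:**
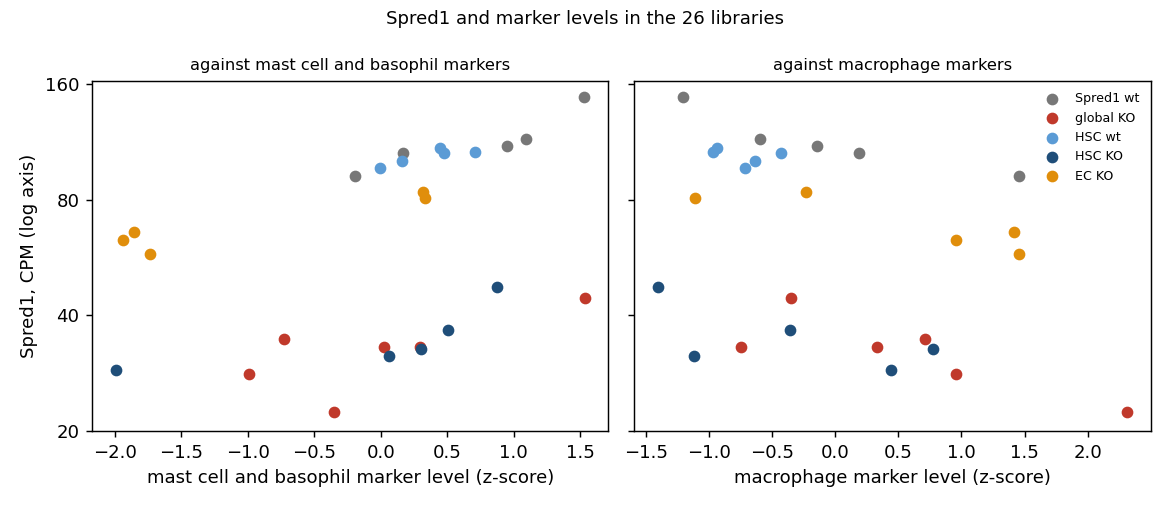
Spred1 in CPM (log axis) against the mast cell and basophil score (left) and the macrophage score (right), both as z-scores, for the 26 libraries coloured by group. EC KO libraries 1 and 2, at 83.9 and 80.9 CPM, have mast cell scores of 0.319 and 0.334, and the other 3 lie at scores of -1.94 to -1.74.

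Mir674 begins 2849 bases past the end of Spred1 (chr2:117121071-117182277) on the same strand, with 0 annotated exons between the genes and 64512 bases to the next gene, Fam98b. Its reads were few: 3 counts over the 5 Spred1 wt libraries (1, 0, 0, 0 and 2) and 8 over the 5 HSC wt libraries (3, 1, 2, 1 and 1). A count of 0 allows up to 3 counts. In global KO the 6 libraries held 5 to 25 counts (77 in all), with a level of 0.302 to 1.24 CPM and a median of 0.627. In HSC KO they held 9, 11, 4, 10 and 8 counts, and in EC KO 6, 5, 4, 4 and 5. Every knockout library, in CPM, was above all libraries of its comparison group, in 6 of 6 global KO, 5 of 5 HSC KO and 5 of 5 EC KO libraries.

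Relative to the depth of the libraries, Mir674 reads were 20.3 times as frequent in global KO as in Spred1 wt (exact 95% interval 6.70 to 101). The ratio was 6.51 (3.02 to 16) for HSC KO over HSC wt and 6.33 (1.92 to 32.8) for EC KO over Spred1 wt. For EC KO over HSC wt it was 2.91 (1.26 to 7.49), and for the wild-type groups, HSC wt over Spred1 wt, 2.2 (0.522 to 12.7). These intervals cover counting error only. Mir674 rose in global KO (edgeR adjusted p = 0.00077, and 0.000332 to 0.00673 when any single library was left out). It did not pass in HSC KO (edgeR adjusted p = 0.159). It rose in EC KO (edgeR adjusted p = 0.0265), a call that did not hold with DESeq2 (adjusted p = 0.0552), with HSC wt as the control (edgeR adjusted p = 0.0958), or without Spred1 wt library 2, 3 or 4 or EC KO library 3 (edgeR adjusted p = 0.0733, 0.0577, 0.0547 and 0.051). EC KO was below global KO, at a ratio of 0.311 (0.188 to 0.498; edgeR adjusted p = 0.018, and 0.0533 without global KO library 4 or 0.0555 without EC KO library 3).

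The gene entered the test only through 4 global KO and 2 HSC KO libraries at or above the filter of 0.537 CPM, and a gene that passes in that way had to differ. With no filter the edgeR adjusted p was 0.00113 in global KO, 0.274 in HSC KO and 0.0359 in EC KO. In a fit of the compared groups alone Mir674 failed the filter in all comparisons but those that joined global KO with HSC KO. Reads on the hairpin in libraries of total RNA cannot tell the mature microRNA from its precursor or from RNA that runs past the end of Spred1. Of 6 genes of the table within 500 kb of Spred1, Fam98b was called in EC KO against Spred1 wt (log2 difference 0.29, SE 0.0713, edgeR adjusted p = 0.0123) and not in global KO or HSC KO. In EC KO against Spred1 wt 7.96% of all tested genes were called. Against global KO, Fam98b in EC KO differed by 0.15 and was not called (edgeR adjusted p = 0.172). Between the wild-type groups it was 0.13 higher in HSC wt (edgeR adjusted p = 0.811). Rasgrp1 was not called in any of the 3 knockout comparisons, D330050G23Rik was under the filter, Tmco5 had 0 counts, and Mir684-1 is a row that spans 121913 kb and cannot be placed. Mir126a had 0 to 3 counts in each library.

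Of the 7 members, 2 were called in global KO, Spred1 and Mir674, where 0.0747% of all tested genes were called. In HSC KO 1 was called, Spred1, against 0.0224% of genes, and in EC KO 2, Spred1 and Mir674, against 7.96% of genes. In each of the 3 comparisons the same 2 members had groups that did not overlap, as did 0.321%, 0.65% and 5.55% of genes. Spred1 is the targeted gene, and Mir674 entered the test only through global KO and HSC KO libraries. These counts are therefore no measure of enrichment among the members. None of the other 5 members was called in these comparisons, and none of the 7 between the wild-type groups, where 0.0299% of genes were called. The table had 740 genes at an unadjusted p under 0.05 in global KO and 289 in HSC KO.

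**Figure D3:**
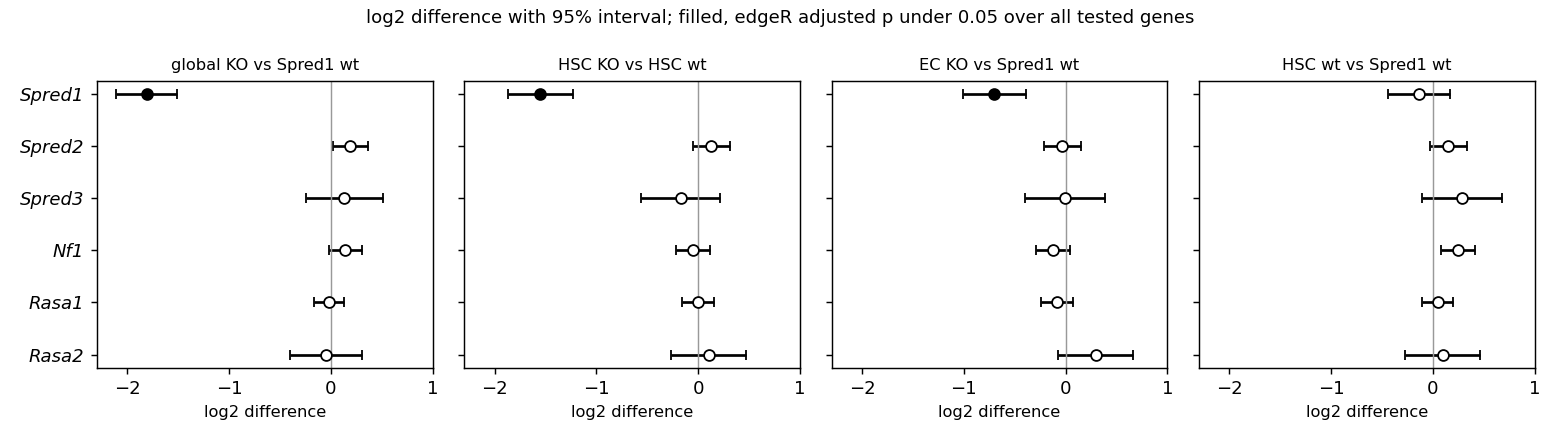
Log2 differences of the 6 coding members (points) with 95% intervals (bars) in 4 comparisons, filled where the edgeR adjusted p over all tested genes is under 0.05. Spred1 is filled in each knockout comparison, at -1.81, -1.55 and -0.70; the other 5 are open throughout, and Mir674 is left out because several of its libraries have 0 counts.

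Spred2 and Spred3, the paralogs of Spred1, were not called in any knockout comparison. In the 6 global KO libraries Spred2 lay between 37.8 and 50.5 CPM (median 45.6), and the Spred1 wt libraries held 38.7, 41.7, 45.3, 35.5 and 37.9 CPM. The groups overlapped, with 3 of 6 knockout libraries above all controls. The log2 difference was 0.19, with an interval of 0.02 to 0.36 and an edgeR adjusted p of 0.843. In HSC KO it was 46.7, 46.7, 46.9, 55.2 and 46.6 CPM, and in HSC wt 42.9, 49.1, 43.1, 43.8 and 42.6 CPM, which overlapped through the second HSC wt library. Here the difference was 0.13 (interval -0.05 to 0.31, edgeR adjusted p = 0.999). In EC KO Spred2 stood at 43.7, 43.5, 37.8, 31.1 and 38.3 CPM and differed from Spred1 wt by -0.03 (interval -0.21 to 0.15, edgeR adjusted p = 0.843). Only the contrast of EC KO with HSC KO, the lowest and the highest group, was called among the pairs of groups, at -0.32 (SE 0.0877, edgeR adjusted p = 0.0239), where 8.89% of genes were called.

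Spred3 had the lowest mean CPM of the coding members in each group. It had 26.2, 24.2, 16.2, 12.8 and 15.9 CPM in HSC wt and 16.7, 16.3, 17.9, 16.6 and 16.9 CPM in HSC KO, a coefficient of variation of 30.4% against 3.63%. Counting error alone would give about 5.04% in HSC wt and 5.91% in HSC KO. The HSC KO value lies below that, and the difference in spread was not tested. Its log2 differences were 0.13 (interval -0.25 to 0.51) in global KO, -0.17 (-0.57 to 0.22) in HSC KO and 0.00 (-0.40 to 0.39) in EC KO. The interval in global KO spans 84.3 to 142% of the control, and changes inside it were not detectable.

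Per kb of gene length, the 3 paralogs summed to 30.2 ± 3.25 CPM in Spred1 wt (mean ± SD, n = 5), 20.5 ± 1.84 in global KO (n = 6), 30.7 ± 1.90 in HSC wt, 21.7 ± 1.25 in HSC KO and 23.8 ± 2.91 in EC KO (n = 5 each). The knockout groups thus held 67.9%, 70.5% and 78.6% of their controls. Spred1 made up 53.1 ± 4.65% of the sum in Spred1 wt, 47.8 ± 2.88% in HSC wt, 22.3 ± 3.66% in global KO, 23 ± 3.9% in HSC KO and 41.7 ± 2.73% in EC KO. Spred2 held the larger share in global KO (58.9%) and HSC KO (59.5%), and 43.5% in EC KO, beside 35.1% in Spred1 wt and 38.4% in HSC wt. These sums are a description, since the drop in Spred1 sets most of them, and no test was made on them.

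**Figure D4:**
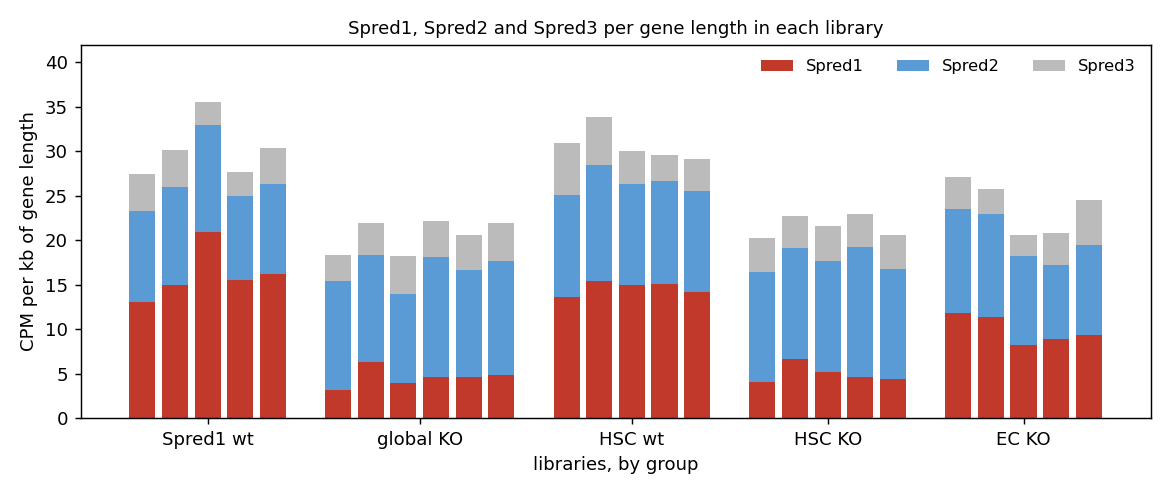
CPM per kb of gene length of Spred1, Spred2 and Spred3, stacked for each library and ordered by group. The stacks of the knockout libraries (18.2 to 27.1) are lower than those of the wild-type libraries (27.4 to 35.5), and the mean Spred2 segment is 10.3 in EC KO and 12.9 in HSC KO, the lowest and the highest group.

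The GTPase activators Nf1, Rasa1 and Rasa2 were not called in any knockout against its control. For Rasa1, global KO had 70.2 to 101 CPM (median 91.8), beside 87.8, 92.9, 89.9, 88.8 and 97.3 CPM in the Spred1 wt libraries. The groups overlapped, with a log2 difference of -0.02 (interval -0.17 to 0.13, edgeR adjusted p = 0.999), which is 89.0 to 109% of the control. The differences were 0.00 (-0.16 to 0.15) in HSC KO and -0.08 (-0.24 to 0.07) in EC KO. In the annotation 12 bases of the Rasa1 exons (0.263%) overlap Ccnh on the opposite strand, and the strand setting of the counts is not given in the sources used here.

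Rasa2 was the least even of the activators, with 48.5, 42.7, 37.0, 77.2 and 62.0 CPM in Spred1 wt and 71.1, 76.2, 80.9, 52.8 and 46.8 CPM in EC KO. The groups overlapped broadly. The log2 difference was 0.30 (interval -0.07 to 0.67, edgeR adjusted p = 0.311). It became 0.55 (edgeR adjusted p = 0.0443) with the mast cell score as a covariate, while without any single library the adjusted p was 0.107 to 0.577. In global KO the difference was -0.05 (interval -0.41 to 0.31), and in HSC KO 0.10 (-0.27 to 0.47).

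Nf1, whose product is the partner of SPRED1, had 53.9 to 73.2 CPM (median 61.6) in global KO and 50.4, 64.4, 53.7, 61.7 and 54.8 CPM in Spred1 wt. The groups overlapped and differed by 0.14 (interval -0.02 to 0.30, edgeR adjusted p = 0.915). HSC KO, at 63.7, 65.5, 65.7, 69.3 and 61.5 CPM, differed from HSC wt, at 70.7, 70.3, 68.3, 66.2 and 61.5 CPM, by -0.05 (-0.22 to 0.12, edgeR adjusted p = 0.999). EC KO was the group of the lowest mean, with 58.5, 57.6, 47.0, 48.4 and 49.8 CPM. It did not differ past the threshold from Spred1 wt (-0.13, interval -0.29 to 0.04, edgeR adjusted p = 0.342). Its log2 difference from HSC wt was -0.37 (SE 0.0806, edgeR adjusted p = 0.0046), where 11.3% of genes were called. That from HSC KO was -0.32 (SE 0.0808, edgeR adjusted p = 0.0141), where 8.89% of genes were called. Between the wild-type groups, Nf1 in HSC wt lay above Spred1 wt by 0.24 (interval 0.08 to 0.41) and was not called (edgeR adjusted p = 0.549).

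Against global KO, Nf1 was lower in EC KO (log2 difference -0.27, SE 0.0775, edgeR adjusted p = 0.0314). In that contrast 3 of the 7 members were called, Spred1, Mir674 and Nf1, beside 8.67% of all genes. The Nf1 call was lost in a fit of the compared groups only (edgeR adjusted p = 0.118) and without global KO library 3 or 4 or EC KO library 3 or 4 (edgeR adjusted p = 0.085, 0.0671, 0.113 and 0.0915). Spred2 was -0.22 in the same contrast and was not called (edgeR adjusted p = 0.0947), but passed without global KO library 3 (0.0468). Rasa2, at 0.35 (edgeR adjusted p = 0.215), passed with the mast cell score as a covariate (0.49, edgeR adjusted p = 0.0404).

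**Figure D5:**
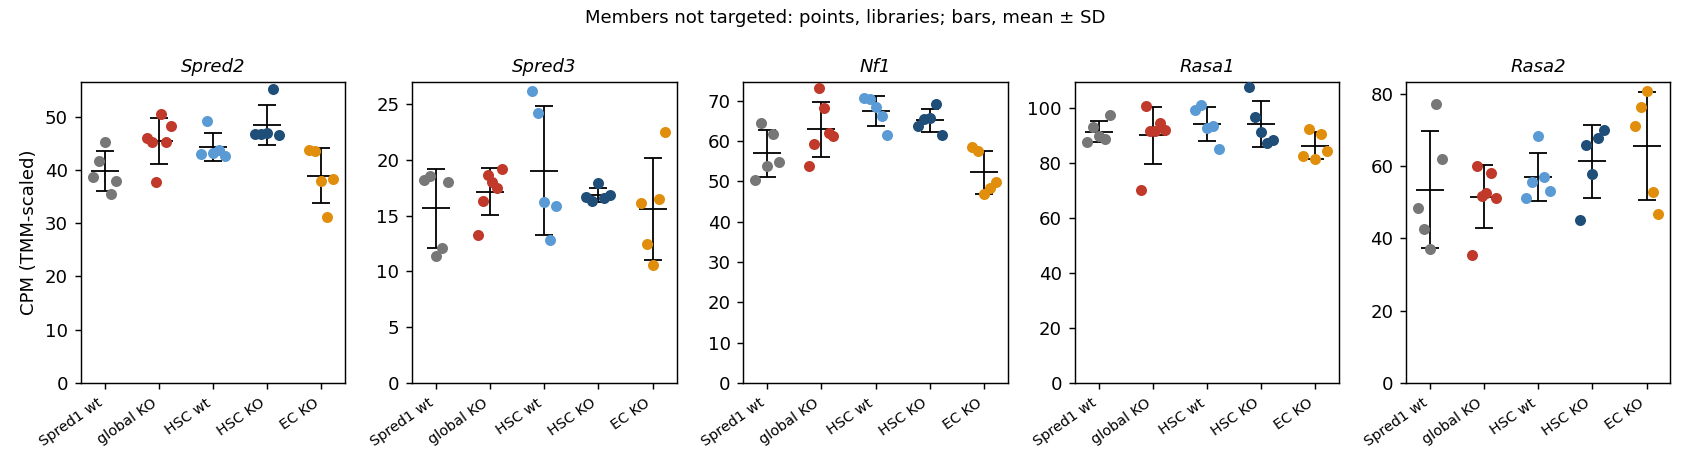
CPM of Spred2, Spred3, Nf1, Rasa1 and Rasa2 in each library (points) with the mean ± SD (bars) for the 5 groups, on axes that start at 0. Knockout and control points overlap in every panel for each knockout and its control. EC KO has the lowest mean of Spred2, Spred3, Nf1 and Rasa1 and the highest of Rasa2.

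Among the 6 coding members, the order of abundance per kb of gene length changed with the loss of Spred1. In Spred1 wt, Rasa1 (18 CPM per kb) and Spred1 (16.2) stood above Spred2 (10.6), Rasa2 (9.36), Nf1 (3.75) and Spred3 (3.51). In global KO the order was Rasa1 (17.8), Spred2 (12.1), Rasa2 (9.03), Spred1 (4.61), Nf1 (4.14) and Spred3 (3.85). Gene lengths are those of the count table. Among the 10 pairs of groups, no neighbours in the order of the group means separated for Spred2, Spred3, Mir674, Nf1, Rasa1 or Rasa2. Across those pairs, the share of genes called included 0.142% for HSC KO against Spred1 wt and 0.194% for global KO against HSC wt.

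Apart from Spred1, no gene examined here from the RAS pathway down to ERK was called in global KO or HSC KO. Of 7 other RAS GTPase activators, 7 measured exchange factors, 6 RAS GTPases, 7 RAF, MEK and ERK kinases, 3 Sprouty genes and 7 measured partners and regulators of SPRED proteins, none was called in either comparison. Over all tested genes 0.0747% were called in global KO and 0.0224% in HSC KO, so the lack of calls here is near that share. The nearest was Rras2, which codes for the RAS relative TC21, in global KO (log2 difference -0.50, SE 0.102, edgeR adjusted p = 0.0542). Rasgrp1, an exchange factor, stood at -1.06 in global KO (SE 0.376, edgeR adjusted p = 0.604) and at 0.26 in HSC KO (SE 0.388, edgeR adjusted p = 0.999). The Spred1 wt libraries were uneven in it, at 3.27, 3.23, 4.19, 8.76 and 9.75 CPM, beside 1.45 to 4.16 in global KO. The medians of these lists in global KO ranged from -0.30 for the exchange factors to 0.35 for the Sprouty genes, beside 0.01 over all tested genes.

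In EC KO against Spred1 wt, 1 of 7 exchange factors fell, Sos1, which loads RAS with GTP (-0.28, SE 0.0772, edgeR adjusted p = 0.0253). Of 6 RAS GTPases, Nras rose (0.18, SE 0.0495, edgeR adjusted p = 0.0233). Of 7 SPRED partners and regulators 2 fell: Kit, the receptor that binds SPRED1 (-0.85, SE 0.177, edgeR adjusted p = 0.00447), and Tesk1, a kinase that binds SPRED1 (-0.34, SE 0.0987, edgeR adjusted p = 0.0338). None of the 7 kinases and none of the 3 Sprouty genes was called. These counts stand beside 7.96% of all genes called in this comparison. Against global KO, EC KO had lower Dyrk1a, Tesk1 and Kit of the partners, lower Spry1, and higher Rras2 and Nras, with edgeR adjusted p-values of 0.00599 to 0.0396.

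The 15 genes known as outputs of ERK signalling had a median log2 difference of 0.27 in global KO and in HSC KO, beside 0.01 and 0.02 over all tested genes. Between the wild-type groups, HSC wt against Spred1 wt, the median was -0.26, with 11 of the 15 lower and none called. In global KO 13 were higher and 1 was called, Ccnd1, which codes for cyclin D1 (1.004, SE 0.171, edgeR adjusted p = 0.00738). In HSC KO 12 were higher and none was called. Ccnd1 there stood at 71.6, 77.8, 86.1, 76.9 and 67.8 CPM against 46.7, 54.1, 49.6, 36.1 and 52.7 in HSC wt, with no overlap and an edgeR adjusted p of 0.999 (unadjusted 0.000854). In EC KO 8 of 15 were higher than in Spred1 wt, with a median of 0.17 and 2 calls, 1 in each direction, where 7.96% of all tested genes were called. Ccnd1 stood at 0.54 (SE 0.176, edgeR adjusted p = 0.0554) and was not called. Dusp5, a phosphatase of nuclear ERK, was lower (-0.78, SE 0.218, edgeR adjusted p = 0.0278), and Etv4, a transcription factor of low level here, was higher (2.37, SE 0.722, edgeR adjusted p = 0.0437). In HSC wt against Spred1 wt, Dusp5 stood at -0.72 (SE 0.218, edgeR adjusted p = 0.453) and Etv4 at 0.61 (SE 0.745, edgeR adjusted p = 0.935).

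The 5 genes whose pattern was most like that of Spred1, by the SD over 26 libraries of the log2 ratio to Spred1, were Nckap1 (0.621), Pdcd1lg2 (0.646), Ankrd33b (0.648), Dnaja4 (0.651) and Rras2 (0.655). The median of 10487 genes with a mean of at least 5 CPM was 0.845, and the SD of Spred1 itself was 0.820. Nckap1, a subunit of the WAVE complex that drives actin branching, stood at 16.3 ± 4.09 CPM in Spred1 wt, 10.2 ± 3.39 in global KO, 13.7 ± 1.51 in HSC wt, 11.2 ± 4.58 in HSC KO and 10.1 ± 1.56 in EC KO. Rras2 stood at 12 ± 1.54, 8.49 ± 0.688, 10.6 ± 1.12, 9.26 ± 1.33 and 10.9 ± 0.635 CPM in the same order. With the prior count lowered to 0.5 the same 5 genes led, and at a minimum of 20 CPM 0 of them remained, since each lies under that level. Among the members, Rasa1 came nearest at 0.811, and Spred2 and Spred3 lay above the median at 0.900 and 0.898. A gene that did not vary at all would score 0.820, the SD of Spred1. The SD of Rasa1 itself was 0.119, so its place does not show that it follows Spred1. These are descriptions, and the libraries share their groups.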

How the data were processed

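The authors deposited 1 table of whole-number read counts for each gene in each library, not normalized. The submitters' processing notes name bcl2fastq 2.18.0.12, STAR 2.6.0, HTSeq 0.6.0, edgeR 3.28.1 and build mm10. Annotation and strand setting are not given in the sources used here. All 26 columns were mapped to samples by title, 0 pairs were identical, and totals were 14816071 to 26714325 counts.

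The analysis used R 4.3.3, edgeR 4.0.16, DESeq2 1.42.0, Python 3.11.15, pandas 2.3.3, SciPy 1.17.1 and matplotlib 3.10.9. A minimum count of 10 in filterByExpr left 13379 genes. The 26 libraries, TMM-scaled, were fitted together with 5 group means (21 residual degrees of freedom, biological coefficient of variation 0.205). Comparisons are contrasts tested by the robust quasi-likelihood F-test of edgeR, two-sided, with Benjamini-Hochberg adjustment over all tested genes and a threshold of 0.05. Intervals are 95%, from the standard error; those of Mir674 rates are exact conditional Poisson intervals. Scores and likeness used log2 CPM with a prior count of 2.

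All members are named. From each pathway list at most the 4 called genes of smallest p are named, or the 1 of smallest p where none was called. Rasgrp1, Mir126a and Ccnd1 in HSC KO and EC KO were given in addition after their values were seen. So were Dusp5 and Etv4 between the wild-type groups, and single mast cell and basophil markers. Some genes that the rule of smallest p took are left out of the text, though they stayed in every fit. Members, lists and tests were chosen with earlier results of these data known. Alternatives were RLE scaling, no filter, DESeq2, the compared groups only, covariates for sex and for mast cell markers, other controls for EC KO, and each library left out. The scripts were tested on simulated data with known changes. The 3′ UTRs are from GENCODE, on GRCm38, the same assembly as mm10.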

Additional observations from a re-analysis of the deposited data

Results flagged for a closer look

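Among the 35 sets of values of 1 member in 1 group, 4 held a library far from the others, where chance gives about 1 in 20. Spred2 was 49.1 CPM in HSC wt library 2, with the other 4 at 42.6 to 43.8, and 55.2 CPM in HSC KO library 4, with the others at 46.6 to 46.9. Global KO library 1 was lowest in Rasa1, at 70.2 CPM with the others at 91.8 to 101, and in Rasa2, at 35.5 CPM with the others at 51.2 to 60.0. The same library had the lowest Spred1 level of all 26 (22.4 CPM) and the highest macrophage score (2.31).

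EC KO and global KO, which share the Spred1 wt control, differed from each other in 3 members: by 1.11 on the log2 scale in Spred1, -1.65 in Mir674 and -0.27 in Nf1, each past the threshold in the direct contrast of edgeR. In that contrast 8.67% of all tested genes were called. The Nf1 call was lost without any of 4 single libraries and in a fit of the compared groups only. That of Mir674 was lost without either of 2 single libraries.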

How the results depend on the processing

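Of 637 values of members under single changes of processing, 597 kept direction and side of the threshold, 13 lost a call, 5 gained one and 22 turned sign, of which 0 had an adjusted p under 0.05. Spred1 stayed called and lower in the 3 knockout comparisons under all alternatives run. Sign turns were Rasa1 in HSC KO at 0.00551 and Spred3 in EC KO at 0.11 with the sex covariate, and Rasa2 in global KO at 0.0621 and Spred2 in EC KO at 0.0757 with the mast cell covariate; the cause was not tested. Leaving out single libraries gave ranges across 0 for Spred2 (-0.0898 to 0.0364) and Spred3 (-0.20 to 0.11) in EC KO, Rasa1 in HSC KO (-0.0527 to 0.0213), Rasa1 (-0.0611 to 0.0366) and Rasa2 (-0.16 to 0.11) in global KO, Rasa2 between the wild-type groups (-0.0122 to 0.258), and Spred1 in HSC KO against global KO (-0.0123 to 0.219).

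The number of called genes moved more. With only the compared groups in the fit it was 4 in global KO (10 in the fit of all libraries), 333 in EC KO (1065), 1 between the wild-type groups (4) and 470 in EC KO against global KO (1160). With the sex covariate it was 636 in EC KO and 699 against global KO. With the mast cell covariate it was 20 in global KO, 5 in HSC KO (3), 2675 in EC KO, 82 between the wild-type groups, 2492 in EC KO against global KO and 30 in HSC KO against global KO (9). DESeq2 gave 45, 5, 35 and 45 in global KO, HSC KO, the wild-type groups and HSC KO against global KO, and 7 for the difference of the 2 effects (2). Set against both wild-type groups together, EC KO gave 2052. Without single libraries the counts were 8 to 25 in global KO (21 without its library 2, and 25 and 20 without Spred1 wt 1 and 2). In EC KO they were 483 to 1880 (483, 628 and 1880 without its libraries 3, 4 and 5, and 584 without Spred1 wt 5), and against global KO 548 to 2061 (548, 673 and 2061 without EC KO 3, 4 and 5). Between the wild-type groups they were 1 to 21 (1 without any HSC wt library, 21 without Spred1 wt 1 and 2 without Spred1 wt 3 or 4). HSC KO against global KO gave 5 (without HSC KO 5) to 17 (without global KO 2), and the difference of effects 2 to 7 (4 without global KO 2 and 7 without Spred1 wt 1). No paired analysis was possible because the labels give each library a serial number of its own and no number that groups share.

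EC KO has no control of its own here, and poly(I:C) with Mx1-cre cannot be told apart from the group in any contrast of the HSC groups with the others. Female libraries are found in 3 of the 5 groups. Mir674 rests on 0 to 25 counts per library, which limits each statement on it.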
